A study of Mus musculus with 59 samples.

Results

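RNA sequencing of the prefrontal cortex was compared between wild-type female mice that had received lithium and wild-type female mice that had received vehicle. The comparison took the 5 libraries whose table columns carry the codes for wild type, lithium and female, and the 5 with the codes for wild type, vehicle and female, so 10 of the 59 libraries in the series. All 10 mice were C57BL/6J and labelled wild type for Ash1l, a histone methyltransferase gene, and were collected on postnatal day 25. Treatment ran for 3 weeks, from postnatal day 3 to 24, and reached the pups through their mother's milk. Neither the dose, the dam nor the litter of a pup is given in the sources used here. The p-values therefore rest on the spread between libraries of a group, which may be technical, and the effects of drug, litter and dam cannot be told apart. The series also holds Ash1l heterozygous (HT) mice, males, and mice given fluoxetine.

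Lithium is a mood stabiliser. Its best known direct targets are the kinases GSK3-alpha and GSK3-beta, which mark beta-catenin for degradation, and the magnesium-dependent phosphatases of the inositol cycle, among them inositol monophosphatase, whose inhibition limits the recycling of free inositol. In the cortex the cells that could respond include neurons, astrocytes, oligodendrocytes, microglia and the cells of blood vessels. In bulk tissue, fewer cells of a type and less RNA per cell cannot be told apart.

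The 5 lithium libraries held 25.5 to 35.5 M reads and the 5 vehicle libraries 27.0 to 36.3 M. Xist exceeded the summed Y-linked genes in 10 of 10 libraries, as the label female requires. All 16 excitatory neuron markers, 18 astrocyte markers and 20 microglial markers reached a normalised count of 10 in every library. The library labelled vehicle replicate 3 stood apart. Its values deviated from the rest of its group with an SD of 0.42 on the log2 scale, against 0.18 to 0.23 in the other 9. Its summed oligodendrocyte markers came to 326473 normalised counts, against 127539 to 170783 in the other vehicle libraries and 99211 to 182485 under lithium. Choroid plexus markers stood at 19008 in it and at 6667 to 9032 in the other 9 libraries, and excitatory neuron markers at 139229 against 177011 to 250375. Ash1l itself was 3557 in that library, below the 3641 to 4382 of the 29 HT libraries and below the 4703 to 6218 of the other 29 wild-type libraries, so this value, taken alone, goes against its genotype label. Chromatin regulators summed to 105006 in that library, against 118998 to 126861 in the other vehicle libraries. Whether its tissue content or its genotype lies behind the Ash1l value was not tested. Markers of neighbouring regions also varied between libraries: olfactory bulb markers summed to 35013 in lithium replicate 1 and 29427 in lithium replicate 2, against 9059 to 18815 in the other 8, and striatal markers to 40148 in lithium replicate 4 and 30716 in the library labelled vehicle replicate 3, against 16201 to 19915 in the other 8. Many results below are given with and without the library labelled vehicle replicate 3, and those given once use all libraries unless stated. The part that these tissue differences play in the results was not tested.

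**Figure D1:**
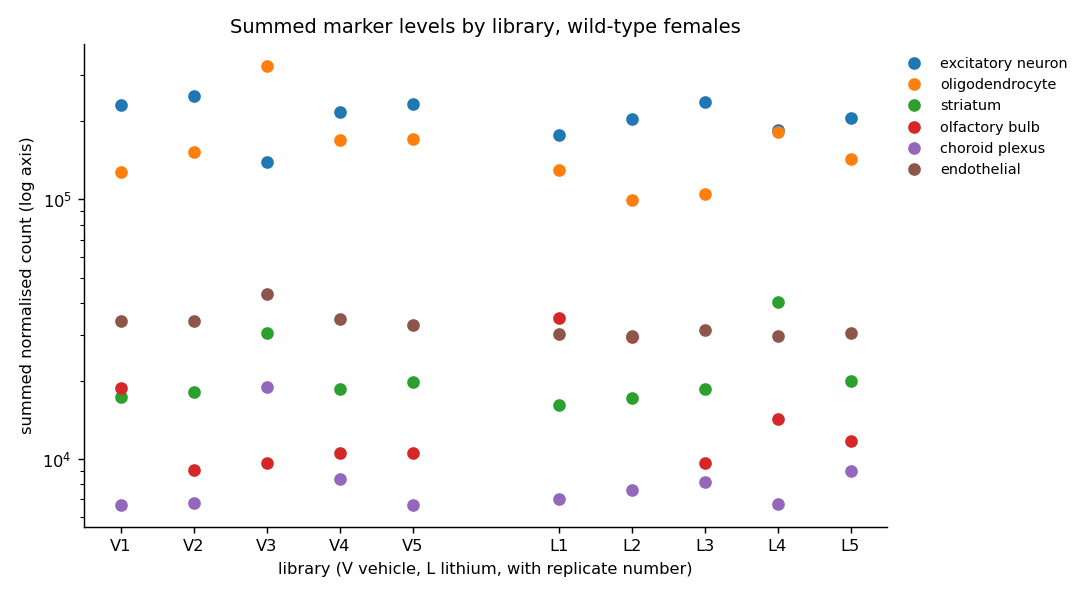
Summed normalised counts of 6 marker lists (log axis) in each of the 5 vehicle and 5 lithium libraries of wild-type females; each point is 1 library. The library labelled vehicle replicate 3 (V3) is high for oligodendrocyte and choroid plexus markers and low for excitatory neuron markers, and L1 and L2 are high for olfactory bulb markers (that point of L2 lies behind its endothelial point).

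With all libraries, 438 of 17875 genes tested (2.45%) differed between lithium and vehicle at an adjusted p under 0.05, 314 higher (1.76%) and 124 lower (0.694%). The changes were small: the median absolute log2 fold change of the 438 was 0.33, and 5 reached 2-fold, namely Hif3a and the predicted genes Gm37968 and Gm37140, which rose, and Trim71 and Troap, which fell (named after their values were seen). Most of these were scarce: Gm37968 stood at 9.1 to 16.2 normalised counts under lithium and 1.0 to 7.3 under vehicle. Gm37140 stood at 6.4 to 20.2 and 2.2 to 3.9, and Troap at 0 to 4.8 and 6.4 to 13.6. Gm37140 and Troap did not pass without the library labelled vehicle replicate 3 (limma, adjusted p = 0.149 and 0.143). Without that library the count of genes past the threshold was 49 (0.274%), 25 higher (0.14%) and 24 lower (0.134%). Of these, 39 had also passed with all libraries, 23 higher and 16 lower. Leaving out any further library took that count to between 1 (vehicle replicate 1 or 2) and 56 (lithium replicate 3). Genes at an unadjusted p under 0.05 numbered 3731 with all libraries and 2378 without it. Other single libraries moved the count as well, to 166, 72, 228, 187 and 123 without lithium replicates 1 to 5 in that order, to 165 without vehicle replicate 4 and to 695 without vehicle replicate 5. The spread was estimated from all 59 libraries, and a fit of the 10 libraries alone called 8 genes. Genes named below as passing only with all libraries lost their call in 1 to 9 of the 10 fits that left 1 library out. In total 27 genes, 21 higher and 6 lower, passed with all libraries and in each of the 10 fits that left 1 library out. The share of higher genes was 71.7% with all libraries, 60.1% with edgeR's TMM scaling, 55.3% with quantile normalisation and 51.0% without the library labelled vehicle replicate 3.

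**Figure D2:**
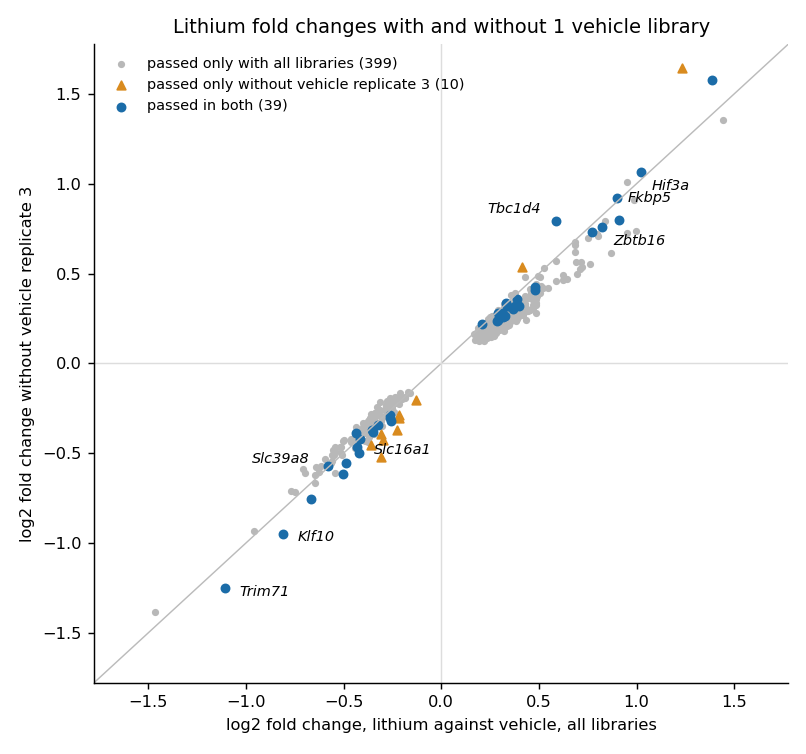
Log2 fold change of lithium against vehicle in wild-type females with all libraries (x axis) and without the library labelled vehicle replicate 3 (y axis), for every gene that passed in either fit; the diagonal marks equal values. The 39 genes that passed in both keep a similar fold change, and 399 of the 438 no longer pass without that library.

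The fold changes varied with the base composition of the transcripts. Across genes, which are not independent replicates, their Spearman correlation with GC content was -0.37, and -0.29 without the library labelled vehicle replicate 3. The genes that rose had a median GC content of 44.7% and a median transcript length of 5676 bases, those that fell 56.5% and 2276 bases, and all genes tested 49.3% and 3177 bases. With a smooth trend on GC content and length removed from every library, 121 genes passed (0.677%), 80 of them among the 438, and 55 (0.308%) when the library labelled vehicle replicate 3 was left out as well. A core of 17 genes, 11 higher and 6 lower, passed with and without the library labelled vehicle replicate 3 and with and without that trend. Of these, 16 are named here: Fkbp5, Zbtb16, Hif3a, Dapk1, Rnf20, Wipf3, Txndc16, Atpaf1, Mybpc1, Clcn1 and the scarce Gm37968, all higher under lithium, and Slc39a8, Slc16a1, Stk40, Klf10 and the scarce Trim71, all lower.

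One group among them was of genes known to respond to glucocorticoids. These steroid hormones bind the glucocorticoid receptor (Nr3c1), which then binds DNA and raises transcription of a small set of widely shared target genes. Of 26 such genes tested, 3 rose and none fell, with all libraries and without the library labelled vehicle replicate 3, beside 1.76% and 0.14% of all genes tested that rose. The median log2 fold change of the 26 was 0.20 (0.18 without that library), beside 0.01 over all genes tested. It was positive under each of 27 settings, from 0.13 to 0.22, but these reuse the same libraries and are not independent. The list was chosen with earlier results of these data known, so its share of called genes is no independent support. In wild-type males 1 member rose, 1 fell and the median was 0.05. In HT females 1 rose, 0 fell and the median was 0.17. The list holds the receptor as well as its targets, and no test of the list as a whole was made.

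Fkbp5 encodes a co-chaperone that lowers the receptor's affinity for hormone and is itself induced by it (chromosome 17, 28399094 to 28517527, minus strand in GRCm38). Its normalised counts under lithium were 1156, 1211, 1063, 1387 and 1175, and under vehicle 489, 565, 679, 730 and 782. Every lithium library lay above every vehicle library, and the library labelled vehicle replicate 3 lay in the middle of its group. Of the 438 genes that passed with all libraries, 318 had no overlap between the groups. Over all genes tested, 3.03% had all lithium libraries above and 3.22% all below. Genes named as passing were chosen in this same comparison, so a lack of overlap is no separate support for them. The log2 fold change was 0.90 ± 0.19 (SE; limma, adjusted p = 0.0102), and 0.92 ± 0.20 (adjusted p = 0.0287) without that library.

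Zbtb16, which encodes the zinc finger transcription factor PLZF, stood at 1137, 1301, 1494, 1185 and 1442 under lithium and at 770, 739, 612, 686 and 905 under vehicle. The groups did not overlap. The log2 fold change was 0.82 ± 0.16 (adjusted p = 0.00497), and 0.76 (adjusted p = 0.0287) without the library labelled vehicle replicate 3. Hif3a encodes a member of the hypoxia-inducible factor family, and its counts were 417, 320, 378, 386 and 337 under lithium against 188, 137, 203, 178 and 201 under vehicle. The lowest lithium library was again above the highest vehicle library, with a log2 fold change of 1.02 ± 0.23 (adjusted p = 0.0144) and 1.07 (adjusted p = 0.0414) without the library labelled vehicle replicate 3.

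Other members had positive values that missed the threshold. Plin4, a coat protein of lipid droplets, stood at 1.11 ± 0.33 (adjusted p = 0.051), Sult1a1, a sulfotransferase, at 0.54 (adjusted p = 0.085), Map3k6 at 0.68 (adjusted p = 0.0972) and Fam107a at 0.32 (adjusted p = 0.0884). The classical targets Tsc22d3 (0.20), Sgk1 (0.12), Per1 (-0.41) and Dusp1 (-0.52) did not pass, and neither did the receptor gene Nr3c1 (-0.12). The genes that rose were thus a minority of the list.

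**Figure D3:**
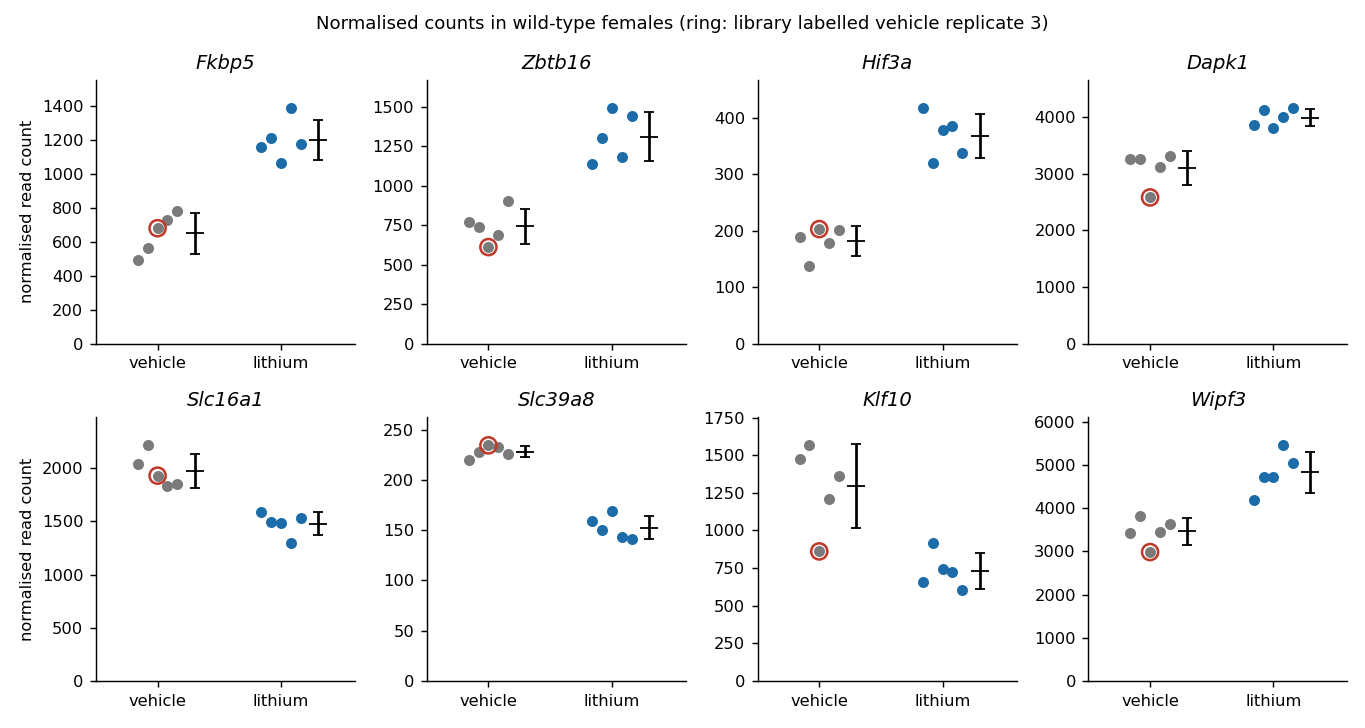
Normalised read counts of 8 genes in the 5 vehicle and 5 lithium libraries of wild-type females; each point is 1 library, bars give the mean ± SD, and the ring marks the library labelled vehicle replicate 3. Lithium and vehicle libraries do not overlap for any of these genes except Klf10, where that 1 vehicle library reaches the lithium range. All 8 passed in this same comparison, so the lack of overlap is no separate support.

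Among the genes that fell were 2 membrane transporters. Slc39a8 encodes ZIP8, an importer of zinc, manganese and iron (chromosome 3). Its counts were 159, 150, 169, 143 and 141 under lithium and 220, 228, 234, 232 and 226 under vehicle, a narrow range in the latter. The log2 fold change was -0.58 ± 0.11 (adjusted p = 0.00497), and -0.57 (adjusted p = 0.0204) without the library labelled vehicle replicate 3. Slc16a1 encodes MCT1, which carries lactate, pyruvate and ketone bodies across membranes of endothelial cells and glia. It stood at 1588, 1492, 1483, 1296 and 1537 under lithium and at 2041, 2216, 1931, 1834 and 1849 under vehicle, with no overlap. Its log2 fold change was -0.42 ± 0.08 (adjusted p = 0.00783), and -0.42 (adjusted p = 0.0216) without that library. It was the only one of 32 genes of hypoxia and glycolysis that passed, beside 2.45% of all genes tested.

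Other genes that fell in the core set act in signalling and transcription. Stk40, a serine/threonine kinase homologue, stood at 940 to 1220 under lithium against 1191 to 1589 under vehicle, where 1 vehicle library, the one labelled replicate 3, reached into the lithium range (-0.49 ± 0.11, adjusted p = 0.0144). Klf10, a zinc finger repressor induced by transforming growth factor beta and by neuronal activity, stood at 607 to 919 against 861 to 1566 (-0.81 ± 0.20, adjusted p = 0.0271). Its call ended without lithium replicate 1 (adjusted p = 0.056), lithium replicate 5 (0.075) or vehicle replicate 2 (0.051). Trim71, an RNA-binding protein of early development, was scarce, at 14.4 to 21.7 against 25.7 to 51.5 (-1.11 ± 0.27, adjusted p = 0.0249), and its adjusted p was 0.056, 0.062 and 0.062 without lithium replicate 1, lithium replicate 2 and vehicle replicate 4.

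Genes that rose in the core set had varied functions. Dapk1, a kinase controlled by calcium and calmodulin, had the smallest p-value of all genes tested. Its counts were 3854, 4120, 3813, 4010 and 4162 under lithium and 3263, 3252, 2582, 3124 and 3319 under vehicle, where the library labelled replicate 3 was the lowest. The log2 fold change was 0.37 ± 0.06 (adjusted p = 0.00187), and 0.30 ± 0.06 (adjusted p = 0.0135) without that library. Wipf3, which binds actin regulators of the WASP family, rose by 0.48 ± 0.09 (4178 to 5454 against 2983 to 3818, adjusted p = 0.00411). Rnf20, a ubiquitin ligase for histone H2B, rose by 0.29 ± 0.05 (2195 to 2392 against 1807 to 2024), and Txndc16, a thioredoxin-like protein, by 0.34 ± 0.06 (2591 to 2919 against 2041 to 2383). Atpaf1, an assembly factor of the mitochondrial ATP synthase, rose by 0.33 ± 0.06 (1318 to 1491 against 1031 to 1157).

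Another set of genes passed with and without the library labelled vehicle replicate 3, but not in both fits with the GC and length trend removed. Among these, Sf3b1, a core protein of the spliceosome, rose by 0.38 (8683 to 10027 against 6063 to 8225), Unc79, a subunit of the sodium leak channel complex, by 0.32 (2315 to 2630 against 1695 to 2169), and Lyst, a regulator of lysosome traffic, by 0.48 (1889 to 2359 against 1227 to 1721). Dnaja4, a co-chaperone of Hsp70, rose by 0.29, and Bod1l by 0.33. Arhgdig, an inhibitor of small GTPases, fell by 0.43 on the log2 scale (1140 to 1473 against 1548 to 1911), and Camk2n2, an inhibitor of calcium/calmodulin kinase II, fell by 0.44 (1146 to 1351 against 1538 to 1969). Sox21, a transcription factor of the Sox family, fell by 0.50 and by 0.62 without the library labelled vehicle replicate 3. Its counts were 201 to 257 under lithium and 233 to 375 under vehicle, and its adjusted p was 0.065 without lithium replicate 2 and 0.059 without vehicle replicate 4. Tbc1d4, an Akt substrate that governs glucose transporter traffic, stood at 346 to 403 under lithium and at 257, 199, 441, 205 and 200 under vehicle, so that the library labelled vehicle replicate 3 alone exceeded all lithium libraries. Its log2 fold change was 0.59 (adjusted p = 0.0334) with that library and 0.80 ± 0.14 (adjusted p = 0.00863) without it, the smallest p-value of that fit. With all vehicle libraries, leaving out lithium replicate 1, 2, 4 or 5 or vehicle replicate 2, 4 or 5 ended its call, with adjusted p up to 0.081.

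The transcripts of lithium's own targets moved little. Of 41 genes of the GSK3 and inositol pathways, 3 rose with all libraries (1.76% of all genes tested did) and none passed without the library labelled vehicle replicate 3 (0.274% of all genes tested did), with a median of 0.07 and 0.06. The 3 were Impa1, which encodes inositol monophosphatase (0.24 ± 0.06, adjusted p = 0.0284), Ppip5k1, an inositol pyrophosphate kinase (0.19), and Pi4ka, a phosphatidylinositol kinase (0.21). Impa1 stood at 1801 to 2108 under lithium and 1429 to 1894 under vehicle, with overlap, and at 0.19 (adjusted p = 0.149) without that library. Its adjusted p was also above the threshold without lithium replicate 1, 2 or 4 (0.056, 0.08 and 0.065). The log2 fold changes of Gsk3a (-0.15, adjusted p = 0.168) and Gsk3b (0.17, adjusted p = 0.238) did not pass. Impa2 (-0.04), Inpp1 (0.13) and Bpnt1 (0.07), which encode the other lithium-sensitive phosphatases, did not pass either.

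Of 48 genes of the Wnt and beta-catenin pathway, 1 fell and none rose, beside 0.694% and 1.76% of all genes tested, with a median of -0.06. This was Nkd1, an inhibitor of Wnt signalling that is itself a target of the pathway (-0.36, adjusted p = 0.0433; -0.28, adjusted p = 0.218, without the library labelled vehicle replicate 3). The target Axin2 stood at -0.07 ± 0.08 (adjusted p = 0.63). Ctnnb1, the beta-catenin gene, had counts of 15258 to 16620 under lithium and 18189, 19275, 14053, 18455 and 17554 under vehicle. The low value is that of the library labelled replicate 3, and the other 4 lay above all lithium libraries. Its log2 fold change was -0.13 ± 0.06 (adjusted p = 0.175), and -0.20 ± 0.05 (adjusted p = 0.0414) without that library. Bdnf, a neurotrophin gene often examined with mood stabilisers, stood at 0.13 ± 0.15 (adjusted p = 0.653). Igf2r was the only one of 42 neurotrophin and growth factor genes that passed (0.30), beside 2.45% of all genes tested. Its adjusted p was 0.16 without the library labelled vehicle replicate 3.

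Several genes of blood vessels fell with all libraries. Of 20 endothelial markers 4 fell and none rose, beside 0.694% of all genes tested that fell. Their median was -0.33, and 10 of the 20 had all lithium libraries below all vehicle libraries, beside 3.22% of all genes tested (and 3.03% with all lithium libraries above). Their summed counts ranged from 29778 to 31294 under lithium and from 32862 to 43141 under vehicle. Cldn5, which encodes the tight junction protein of the blood-brain barrier, stood at 967, 908, 905, 800 and 1033 under lithium and 1273, 1295, 1654, 1340 and 1235 under vehicle. The groups did not overlap, and the library labelled vehicle replicate 3 was the highest. The log2 fold change of Cldn5 was -0.56 ± 0.12 (adjusted p = 0.0107), and -0.48 (adjusted p = 0.0712) without that library. Tek, the angiopoietin receptor gene, fell by 0.46 (414 to 461 against 575 to 674), Flt1 by 0.35 and Kdr by 0.55 on the log2 scale, the last 2 encoding receptors of vascular endothelial growth factor. None of the 20 passed without the library labelled vehicle replicate 3, when the median was -0.25 and Tek stood at -0.42 (adjusted p = 0.0831). Flt1 and Kdr also lost their calls without any 1 of lithium replicates 1 to 5, and Kdr without vehicle replicate 2 or 4, with adjusted p of 0.051 to 0.096. The 12 markers of mural cells, which wrap the vessels, were all negative, with a median of -0.32 (-0.24 without that library). Of these 1, Notch3, fell (-0.54, adjusted p = 0.0354, and 0.146 without that library), beside 0.694% of all genes tested. Mecom, a transcription factor gene also active in endothelium, had a log2 fold change of -0.60 (adjusted p = 0.0102; 0.0627 without that library). The 9 blood cell markers measured, haemoglobin genes among them, summed to 7105 to 14368 under lithium and 11241 to 22831 under vehicle, all with negative values. Of these 1 fell, beside 0.694% of all genes tested. It was Bpgm, which makes the red cell metabolite bisphosphoglycerate (-0.23, adjusted p = 0.0403, and 0.177 without that library). Whether blood left in the tissue plays a part in the vessel genes was not tested.

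Of 20 microglial markers none passed with all libraries, and 18 were negative, with a median of -0.23 (-0.28 without the library labelled vehicle replicate 3). Without that library 1 passed, beside 0.274% of all genes tested. It was Cx3cr1, the fractalkine receptor gene (-0.42, adjusted p = 0.0414, and -0.30, adjusted p = 0.0953, with all). Summed counts of the 20 were 14858 to 18050 under lithium and 16516 to 21085 under vehicle, where the lowest was the library labelled replicate 3. Of 33 interferon response genes, 31 were negative and 1 fell, beside 0.694% of all genes tested that fell. It was the immunoproteasome subunit gene Psmb8 (-0.64, adjusted p = 0.0454, and 0.171 without that library). Without that library 26 of the 33 interferon response genes were negative, with a median of -0.13, beside -0.21 with all libraries. Of 24 oligodendrocyte markers 23 were negative and none passed, with a median of -0.49 that became -0.27 without the library labelled vehicle replicate 3.

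**Figure D4:**
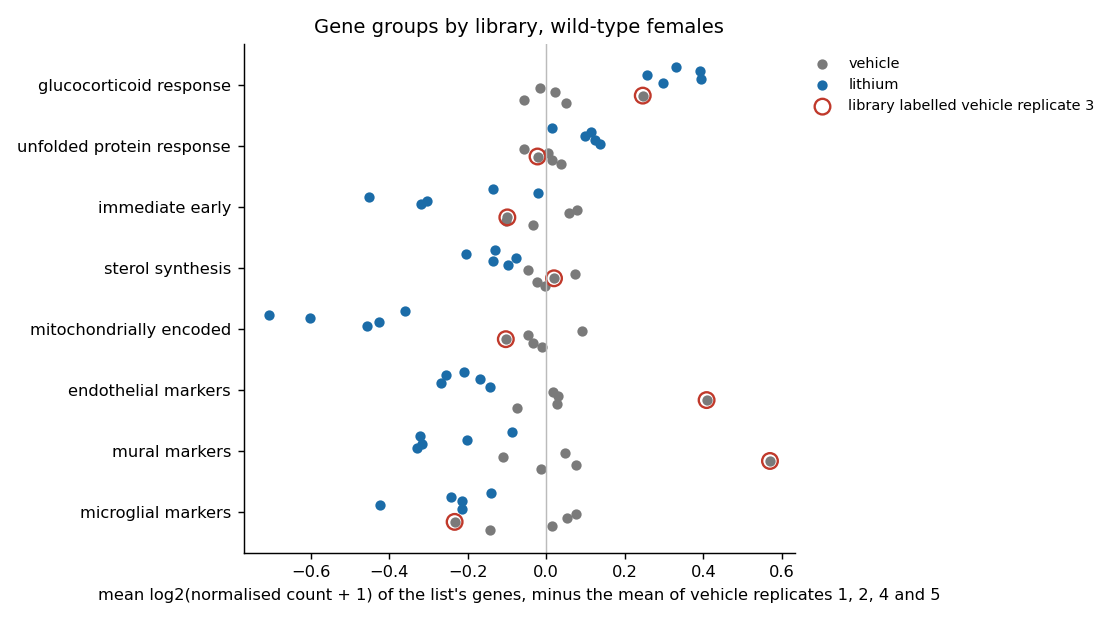
Mean log2(normalised count + 1) over the genes of 8 lists in each library of wild-type females, minus the mean of vehicle replicates 1, 2, 4 and 5 (the line at 0); each point is 1 library and the ring marks the library labelled vehicle replicate 3. Lithium libraries lie to the left of all vehicle libraries for sterol synthesis, mitochondrially encoded genes and endothelial markers. They lie to the right for the glucocorticoid response list, but barely: before subtraction lithium replicate 3 stood at 9.340 and the library labelled vehicle replicate 3 at 9.328. The summed counts of that list overlap, at 42715 to 48897 under lithium and 38978 to 43817 under vehicle.

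The 13 protein genes of the mitochondrial genome were all negative, with a median of -0.37 (-0.34 without the library labelled vehicle replicate 3) and none past the threshold. Together they gave 1693153 to 1825300 normalised counts under lithium and 1864766 to 2347586 under vehicle, with no overlap. The complex I subunit gene mt-Nd1 stood at 145864 to 175943 against 192768 to 236285 (-0.39 ± 0.16, adjusted p = 0.156). The ATP synthase subunit gene mt-Atp6 stood at 7012 to 29946 against 38541 to 73793 (-1.49 ± 0.53, adjusted p = 0.0964). In wild-type males the median of the 13 under lithium was 0.02, and in HT females 0.02. Of 74 nuclear genes of the respiratory chain 1 rose and 1 fell, near the shares of all genes tested (1.76% and 0.694%). They were Ndufs1 (0.29) and Ndufv3 (-0.26). Neither passed without the library labelled vehicle replicate 3 (adjusted p = 0.119 and 0.191). Of 79 genes of the cytosolic ribosome 8 fell, among them Rps21 (-0.33), Rpl32 (-0.24), Rps15 (-0.28) and Rpl37 (-0.37), with a median of -0.21, beside 0.694% of all genes tested that fell. Without that library none passed and the median was -0.16, and in wild-type males the median was 0.14. The value of Rps15 with the GC and length trend removed was 0.0085.

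Immediate early genes, which neurons switch on within minutes of activity, had mostly negative values, 34 of 45, with a median of -0.23. Klf10 was the 1 that fell, beside 0.694% of all genes tested. Arc (-1.07, adjusted p = 0.137), Junb (-0.87, adjusted p = 0.0792), Egr4 (-0.71, adjusted p = 0.0706), Fos (-0.63, adjusted p = 0.216) and Nr4a3 (-0.61, adjusted p = 0.0786) did not pass, and Npas4 stood at 0.48. Sterol synthesis showed a similar one-sided picture of small values, with 30 of 36 genes negative and a median of -0.14. Of the 36, 1 fell, beside 0.694% of all genes tested. It was Insig1, which holds back the sterol sensor of the endoplasmic reticulum (1593 to 1770 against 1951 to 2238, -0.29 ± 0.08, adjusted p = 0.0445). Insig1 did not pass without the library labelled vehicle replicate 3 (adjusted p = 0.158). Nor did it without any 1 of lithium replicates 1 to 5 and vehicle replicates 2 and 4 (up to 0.095).

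Of 47 chromatin regulators, the class to which Ash1l belongs, 5 rose with all libraries, beside 1.76% of all genes tested: Atrx, Kmt2c, Nsd3, Chd2 and Chd8. The library labelled vehicle replicate 3 was low for Atrx, at 3878 against 5303 to 6361 in the other vehicle libraries and 6821 to 7814 under lithium. None of the 47 passed without it, and the log2 fold change of Atrx went from 0.43 ± 0.10 (adjusted p = 0.0218) to 0.31 (adjusted p = 0.143). Ash1l stood at 0.12 ± 0.06 (adjusted p = 0.207) and 0.03 (adjusted p = 0.829). Among 39 genes of ion and water transport 3 rose with all libraries, beside 1.76% of all genes tested, and none without that library. They were the sodium channel genes Scn3b (0.34) and Scn3a (0.40) and the bicarbonate transporter gene Slc4a10 (0.32). No member of the lists for thyroid hormone response, circadian clock, unfolded protein response, heat shock, GABA receptors or glutamate receptors passed in either fit. The unfolded protein response list had 24 of 31 positive values and a median of 0.09. Markers of olfactory bulb had a median of 0.69, with lithium replicates 3 to 5 within the range of the vehicle libraries in their summed counts, and markers of interneurons a median of 0.22, and none of either list passed. No marker of excitatory neurons, astrocytes, oligodendrocyte precursors, meningeal fibroblasts, choroid plexus, striatum, thalamus or immature neurons passed in either fit.

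The same contrast was set beside lithium in wild-type males, where 85 genes passed (0.476%), and in HT females, where 532 passed (2.98%). The 3 contrasts share no library, and that in HT females rests on 9. The count in HT females was 0 without HT lithium replicate 3, HT vehicle replicate 2 or HT vehicle replicate 4, and 9 with the GC and length trend removed. In wild-type males it was 3 without lithium replicate 3, 4 without vehicle replicate 2 and 205 without vehicle replicate 5. Of the 39 genes that passed in wild-type females with and without the library labelled vehicle replicate 3, 31 had the same sign in wild-type males and 25 in HT females, beside 46.1% and 41.7% of all genes tested. Of the 438 that passed with all libraries, 219 had the same sign in wild-type males and 139 in HT females. Among the 438, 5 also passed in wild-type males with the same sign and 0 with the opposite sign. In HT females 8 passed with the same sign and 7 with the opposite sign. Fkbp5 passed in wild-type males (0.78, adjusted p = 0.0401), and Slc16a1 (-0.46, adjusted p = 0.0133) and Slc39a8 (-0.49, adjusted p = 0.019) passed in HT females. Zbtb16 stood at 0.57 (adjusted p = 0.0685) and 0.50 (adjusted p = 0.0723) in the 2 groups, Wipf3 at 0.33 and 0.30 (adjusted p = 0.0549 and 0.0547), and Dapk1 at 0.22 and 0.19. Hif3a stood at 0.07 in wild-type males and 0.30 in HT females, and Rnf20 at -0.03 in both. Cldn5 was at -0.01 and 0.05, whereas Tek passed in wild-type males too (-0.44, adjusted p = 0.0401).

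**Figure D5:**
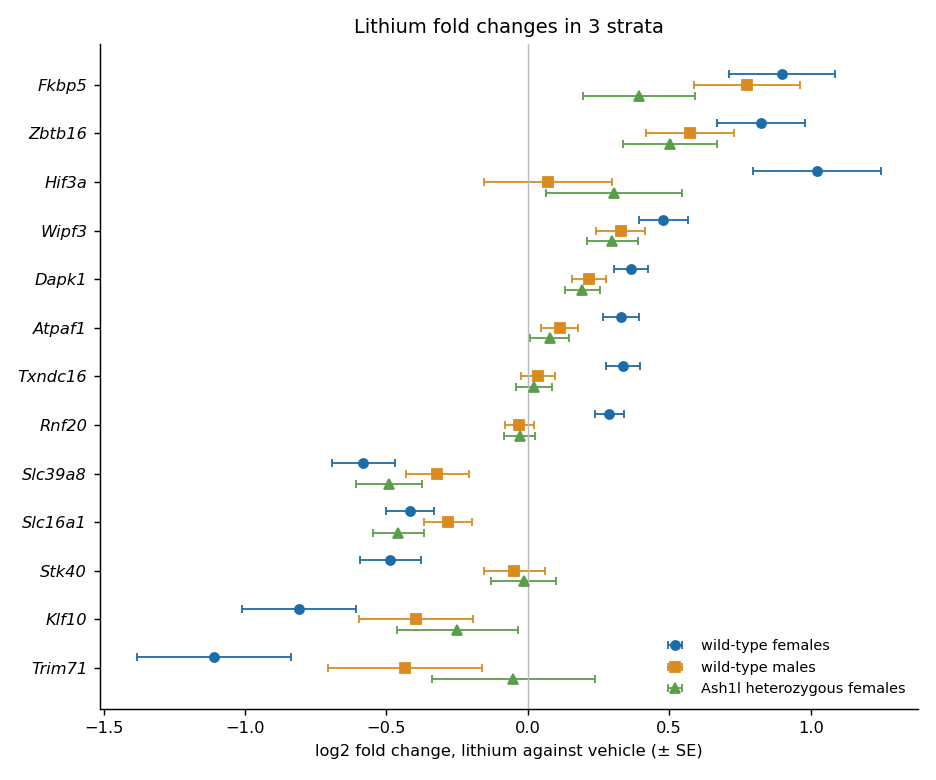
Log2 fold change of lithium against vehicle (points, ± SE) for 13 genes in wild-type females, wild-type males and Ash1l heterozygous females, fitted with all libraries. All genes but Rnf20 lie on the same side of 0 in all 3, but Rnf20, Txndc16 and Stk40 lie near 0 outside wild-type females. Hif3a lies near 0 in wild-type males and Trim71 in heterozygous females.

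Tests of the difference between strata were sensitive to that vehicle library. The effect of lithium differed between wild-type females and males for 344 genes (1.92%), and for none without the library labelled vehicle replicate 3 (limma; 2672 genes had an unadjusted p under 0.05, edgeR gave 0 and DESeq2 212). Leaving out lithium replicate 1 of the females instead also gave 0. Between wild-type and HT females it differed for 1465 genes (8.2%), 621 without that library (3.47%), and 10 with the GC and length trend removed. The fold changes correlated with GC content in opposite directions in these strata, at -0.37 in wild-type females, 0.31 in wild-type males and 0.48 in HT females. The 39 genes that passed in both fits were chosen for their effect in wild-type females, which is also a part of these differences. A raised share among them is therefore built in by the choice. Of the 39 genes, 15 differed between genotypes with and 15 without that library, among them Rnf20 (difference 0.32, adjusted p = 0.0095; 0.0211 without) and Sf3b1 (0.49, adjusted p = 0.0069; 0.0172 without). For Fkbp5 (0.51, adjusted p = 0.235), Zbtb16 (0.32, adjusted p = 0.381), Slc16a1 (0.04 ± 0.12, adjusted p = 0.865) and Slc39a8 (-0.09 ± 0.16, adjusted p = 0.77) no difference between genotypes was detected.

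Fluoxetine, a serotonin reuptake inhibitor, was given to another 5 wild-type females and compared with the same 5 vehicle libraries, so the values of the 2 drugs share their controls. Under fluoxetine Fkbp5 stood at 1.14 (lithium 0.90), Hif3a at 1.34 (1.02), Zbtb16 at 0.76 (0.82), Slc16a1 at -0.59 (-0.42), Slc39a8 at -0.62 (-0.58), Klf10 at -1.04 (-0.81), Stk40 at -0.59 (-0.49), Sox21 at -0.83 (-0.50) and Cldn5 at -0.68 (-0.56). For some genes the value under fluoxetine was nearer 0 than that under lithium: Rnf20 stood at 0.14 (0.29), Txndc16 at 0.08 (0.34), Atpaf1 at 0.07 (0.33), Dnaja4 at -0.01 (0.29), Arhgdig at -0.09 (-0.43) and Btbd6, an adaptor of a ubiquitin ligase, at 0.00 (-0.33). The difference between the drugs was not tested.

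Levels in the other groups place these values. Fkbp5 averaged 649 ± 120.2 (SD, n = 5) in vehicle wild-type females, 788 in vehicle wild-type males, 887 in vehicle HT females and 954 in vehicle HT males, and 1198 ± 119 (SD, n = 5) in lithium wild-type females, 1327 in lithium wild-type males, 1160 in lithium HT females and 1386 in lithium HT males. Slc39a8 averaged 228 ± 5.62 (SD, n = 5), 188, 207 and 192 in the 4 vehicle groups in that order and 152, 150, 149 and 156 in the 4 lithium groups. Zbtb16 averaged 742, 1025, 1029 and 1023 under vehicle and 1312, 1520, 1434 and 1371 under lithium. For Fkbp5 and Zbtb16 the wild-type female vehicle group had the lowest mean of the 4 vehicle groups, and for Slc39a8 the highest. Hif3a averaged 181 in it, against 294, 254 and 252 in the other 3 vehicle groups, and 368, 317, 312 and 332 in the 4 lithium groups.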

How the data were processed

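Poly(A) RNA was sequenced with a stranded kit, per the labels' protocols. The submitters' processing notes name Salmon 0.11.2, DESeq2 1.19.11, R 3.6.0 and GRCm38, without giving their roles. The authors deposited 1 table of 18088 genes in 59 libraries, whose signal values are counts divided by a factor per library. Whole reads were recovered for 100% of values (tolerance 0.01), at 24.5 to 36.3 M reads a library. Chromosome positions, GC content and length came from GENCODE vM21 for 18077 genes.

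Groups were read from the column codes and labels. Values were analysed as log2(normalised count + 1). Genes at 10 or more in at least 5 libraries were tested (17875, leaving out 213). The main test was limma 3.58.1 (R 4.3.3) with trend and robust variance, 12 group means, and Benjamini-Hochberg adjustment at 0.05, so each fold change is on that log2 scale. Alternatives were edgeR 4.0.16 and DESeq2 1.42.0 on recovered reads, pseudocount, filter, quantile normalisation, GC and length trend, library weights, a replicate block, only the groups compared, and leaving libraries out. Alternatives that combine leaving out the library labelled vehicle replicate 3 with another choice were chosen after seeing the data. The test was also run on simulated counts, drawn independently for each gene and library. These held no library that stands apart and no GC or length trend, so that run cannot show how the test behaves with them.

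Genes and lists were chosen with earlier results of these data known. Text names Ash1l, up to 12 genes a direction by smallest p with all libraries and likewise without that library, up to 4 a direction in each list, up to 6 for each interaction, and 9 lithium-related genes by value. Predicted genes were left out, except where small counts are spelled out, and members of lists that missed the threshold were named after their values were seen. Same-numbered lithium and vehicle libraries of wild-type females did not deviate together, and pairing by number was not checked in the other groups. The replicate block used the numbers in the labels, which differ from the column code for an HT lithium female library. Some genes that meet the rule are not reported here.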

Additional observations from a re-analysis of the deposited data

Results flagged for a closer look

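Of 154 groups of 5 values (77 named genes in lithium and in vehicle libraries), 13 were flagged. In these, the distance of 1 library to its nearest neighbour, as a share of the group's range, passed a cut-off. Chance passes that cut-off in about 1 in 20 groups, but the 154 groups share their libraries and are not independent. The 8 flags in the library labelled vehicle replicate 3 were, as normalised counts, Dapk1 at 2582, Dnaja4 at 993, Cldn5 at 1654, Smchd1 at 779, Tbc1d4 at 441, Flt1 at 2372, Ash1l at 3557 and Bdnf at 610. The others were Txndc16 at 2591 and Gsk3b at 6919 in lithium replicate 3, Btbd6 at 903 and Stk40 at 1220 in lithium replicate 2 and Rps15 at 4287 in lithium replicate 4.

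Interaction terms with all libraries (limma, adjusted p under 0.05) compared the effect of lithium between wild-type females and males. They also compared it between wild-type and HT females. Over all genes tested, 1.92% differed between the sexes and 8.2% between the genotypes, and the share that differed in both is not given here. The naming rule chose genes in part by small p-values in wild-type females and in part for these interactions. A raised share among the genes it chose is therefore built in. Both differences passed for 21 of the 77 genes chosen by the naming rule. Given as the log2 difference between the sexes and then between the genotypes, the genes with the more positive effect in wild-type females were Rnf20 (0.32, 0.32), Txndc16 (0.30, 0.31), Sf3b1 (0.35, 0.49), Pcmtd2 (0.38, 0.52), Bod1l (0.35, 0.39), Phf14 (0.56, 0.56), Dhx15 (0.53, 0.73), Zfp644 (0.53, 0.55), Atrx (0.64, 0.66), Smchd1 (0.48, 0.69), Il1rapl1 (0.68, 0.95), Kmt2c (0.50, 0.52), Nup160 (0.59, 0.47), Pgap1 (0.79, 1.0) and Kdm6a (0.50, 0.45). Those with the more negative effect in wild-type females were Selenow (-0.50, -0.67), Rps21 (-0.61, -0.48), Rpl32 (-0.34, -0.29), Rps15 (-0.49, -0.48), Rpl37 (-0.66, -0.49) and Ntpcr (-0.51, -0.48). Of the 77, only the difference between the sexes passed for Fam120b (0.23), Ndufv3 (-0.40) and Lyl1 (-1.13). Mybpc1, which the rule did not choose, likewise had an adjusted p of 0.0309 between the sexes and 0.067 between the genotypes. Only the difference between the genotypes passed for Camk2n2 (-0.40), Btbd6 (-0.36), Cldn5 (-0.60), Arhgdig (-0.48), Scn3b (0.38), Dhx36 (0.70), Nsd3 (0.30), Scn3a (0.73), Slc4a10 (0.47), Psmb8 (-0.95), Gsk3a (-0.33) and Ash1l (0.27). No difference between the sexes passed without the library labelled vehicle replicate 3. Of the 33 genes chosen by the rule that differed between the genotypes, 22 still did without it, and Txndc16, Camk2n2, Cldn5, Scn3b, Nsd3, Rps21, Rpl32, Slc4a10, Rpl37, Psmb8 and Ash1l did not.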

How the results depend on the processing

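Counts of genes past the threshold depended on the processing, and the cause was not tested. They are given here in the order wild-type females, wild-type males, HT females, difference between the sexes, difference between the genotypes, where they moved by more than 1.5 times from 438, 85, 532, 344 and 1465. DESeq2 gave 878, 274, 1035 and 901 (2154 for the genotypes, within that range). Fitting only the groups compared gave 8, 1, 295, 0 and 642. Removal of the GC and length trend gave 121, 32, 9, 1 and 10, and library weights 1215, 46, 2854, 43 and 3384. Leaving out wild-type vehicle male replicate 2 together with the library labelled vehicle female replicate 3 gave 111, 5, 1282 and 0. Leaving out 1 library at a time gave 49 to 695, 3 to 205, 0 to 935, 0 to 712 and 480 (without HT vehicle female replicate 4) to 2408 (without HT vehicle female replicate 5). The highest counts for HT females and for the sexes came without HT vehicle female replicate 5 and wild-type vehicle female replicate 1.

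Same-numbered lithium and vehicle libraries of wild-type females did not deviate together (r from -0.30 to 0.42, mean -0.02), and 1 of 5 lithium libraries correlated best with its own number. A replicate block gave 561 genes in wild-type females, 43 in wild-type males, 1193 in HT females, 453 between the sexes and 2396 between the genotypes. With the block and only the groups compared, wild-type females, wild-type males and the difference between the sexes gave 0 genes and HT females 1836. Whether same-numbered libraries deviate together was not checked in HT females or in males. Other choices (edgeR 356, pseudocount 444, no filter 425, stricter filter 571, quantile normalisation 461) left the count in wild-type females within 1.5 times.

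Without the library labelled vehicle replicate 3, 49 genes passed in wild-type females, 163 with DESeq2, 343 when only the 9 libraries were fitted, and 1 to 56 when a further library was left out. In the same setting the difference between the sexes gave 0 genes with the trend removed, 0 with edgeR and 212 with DESeq2, and that between the genotypes 3 with the trend removed and 667 with edgeR.

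Of single-gene values, 1399 kept direction and side of the threshold, 572 no longer passed, 20 newly passed and 10 changed sign. With the trend removed these were Rps15 (0.0085), Ash1l (-0.0387), Inpp1 (-0.00798) and Kdm6a (-0.0396). With the trend and the library labelled vehicle replicate 3 both removed they were Ash1l (-0.0708), Inpp1 (-0.00261), Kdm6a (-0.0685), Gsk3b (-0.0266) and Bdnf (-0.0733). Impa2 stood at 0.0261 without lithium female replicate 2, the highest of its values with 1 library left out, and at -0.14 without lithium female replicate 4, the lowest. Read totals were 25.5 to 35.5 M under lithium and 27.0 to 36.3 M under vehicle.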
